A study of Homo sapiens with 4 samples.

Results

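The enzymes followed here make or interconvert asparagine, aspartate, alanine, proline and cysteine, together with a mitochondrial enzyme of phosphoenolpyruvate synthesis and an enzyme of arginine synthesis. They are the products of 9 genes (ASNS, GOT1, GPT2, PYCR1, ALDH18A1, CBS, CTH, PCK2 and ASS1), read by gene name from a table of 58735 genes. The members had been picked on how several of them differed between spheroids and adherent cells, so those differences describe the choice and were not tested. RNA was sequenced from 4 libraries, 1 per condition, of HCT116 and LOVO, both of which are human colorectal cancer cell lines labelled as wild type. The adherent libraries came from untreated cells kept in RPMI-1640 with fetal bovine serum. The spheroids were grown from the same lines in ultralow attachment dishes and serum-free DMEM/F12 with B27, N2, bFGF and EGF. The sample labels give the spheroids a treatment of 1 mg/ml without naming an agent. The study's results name oxaliplatin, a platinum chemotherapeutic, at 1 μg/ml, whereas its method for tumorsphere culture names no drug. Growth form, medium and drug therefore cannot be told apart, and no spread between cultures can be given for any of the 4 conditions.

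ASNS, asparagine synthetase, moves an amide group from glutamine to aspartate and gives asparagine. GOT1 and GPT2 are the cytosolic aspartate and the mitochondrial alanine aminotransferase. ALDH18A1 and PYCR1 catalyse the first and the last steps from glutamate to proline. CBS and CTH are the consecutive enzymes of transsulfuration, by which homocysteine is turned into cysteine. PCK2 is the mitochondrial phosphoenolpyruvate carboxykinase, and ASS1 joins citrulline with aspartate on the way to arginine. Cells that lack an amino acid or fold proteins poorly activate the kinases of the integrated stress response, and the transcription factor ATF4 that accumulates then is known to induce ASNS and many other genes of amino acid synthesis. At ASNS it acts through a C/EBP-ATF composite element in the proximal promoter, a site that was described as the nutrient-sensing element of that gene.

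The 4 proximal promoters printed next show the element in ASNS, a match to its core letters in GOT1, and for contrast PCK2, which was lower in both lines, and ALDH18A1, which was close to equal, neither of which holds the letters in this window. Each runs 5′ to 3′ from 250 bases before to 50 bases after a RefSeq start on GRCh38.p14. Capitals mark matches to TGATGNAA, the core of the composite element, or to GTTACA, which in ASNS is known as the second nutrient-sensing site.
ASNS, minus strand, chr7:97872359-97872658: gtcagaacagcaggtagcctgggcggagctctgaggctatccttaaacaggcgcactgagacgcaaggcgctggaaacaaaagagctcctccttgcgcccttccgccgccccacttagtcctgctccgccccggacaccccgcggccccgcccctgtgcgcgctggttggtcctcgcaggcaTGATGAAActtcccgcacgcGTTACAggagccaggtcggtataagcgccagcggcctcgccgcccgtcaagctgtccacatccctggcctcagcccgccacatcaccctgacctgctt
GOT1, minus strand, chr10:99430575-99430874: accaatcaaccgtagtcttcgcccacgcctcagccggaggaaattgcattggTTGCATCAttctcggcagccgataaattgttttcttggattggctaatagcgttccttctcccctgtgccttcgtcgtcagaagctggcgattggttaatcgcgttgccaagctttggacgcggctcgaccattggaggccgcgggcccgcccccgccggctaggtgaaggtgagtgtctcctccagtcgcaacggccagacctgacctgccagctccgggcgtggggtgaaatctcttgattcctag
PCK2, plus strand, chr14:24094061-24094360: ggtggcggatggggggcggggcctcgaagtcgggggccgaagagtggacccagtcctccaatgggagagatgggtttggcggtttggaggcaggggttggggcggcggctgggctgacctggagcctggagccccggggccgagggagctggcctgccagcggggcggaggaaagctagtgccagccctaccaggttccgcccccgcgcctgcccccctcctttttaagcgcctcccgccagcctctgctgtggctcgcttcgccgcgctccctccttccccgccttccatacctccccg
ALDH18A1, minus strand, chr10:95656662-95656961: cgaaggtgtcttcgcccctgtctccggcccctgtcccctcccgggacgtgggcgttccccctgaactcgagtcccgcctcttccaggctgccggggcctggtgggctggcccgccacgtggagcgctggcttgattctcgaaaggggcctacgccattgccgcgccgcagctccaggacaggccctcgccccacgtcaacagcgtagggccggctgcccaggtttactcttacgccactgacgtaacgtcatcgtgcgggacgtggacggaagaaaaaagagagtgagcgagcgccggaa
In ASNS the core match TGATGAAA lay 68 to 61 bases before the start, and GTTACA followed it 48 to 43 bases before the start. ASNS has 2 promoters in the RefSeq table, and the one not printed held no match. In GOT1 the match was on the opposite strand, reading TTGCATCA, 198 to 191 bases before the start. Of the 9 members, 7 had promoters in the RefSeq table, with 11 promoters among them, and PYCR1 and GPT2 were not matched. TGATGNAA was found on either strand in 2 of these 11 promoters (ASNS and GOT1) and in 3.62% of all 35116 promoters of the table. GTTACA was found in 2 of the 11 (ASNS and 1 of ASS1) and in 6.66% of all promoters. Both motifs were taken as known sites of ASNS, so its own matches follow from that choice. Apart from ASNS, only GOT1 matched TGATGNAA and only ASS1 matched GTTACA, and nothing is read from these counts. The palindromic cAMP response element TGACGTCA was in 0 of the 11 and in 1.85% of all. These motifs do not overlap in the promoters shown, and a match is a match of letters in a window, not a measured binding site.

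The table gives FPKM, fragments scaled to gene length and to a size set for each library, and whole reads could be recovered from it. Reads on genes ranged from 15483569 to 20429147 per library, so that the level of 3 reads, taken as the floor, was 0.147 to 0.179 FPKM for a gene of 1 kb. Differences are given as log2(FPKM + 1) of spheroids minus adherent cells, a scale that understates the difference of low genes. The log2 ratio of FPKM without the added 1 is given beside it with a 95% exact (Clopper-Pearson) interval, which covers counting error only. All 9 members were among the 14429 genes compared, which had a mean of at least 1 FPKM over the 4 libraries, CBS through its LOVO libraries.

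The labelled cell type was read from 12 markers of colon epithelium. In the HCT116 libraries EPCAM stood at 85.6 FPKM in adherent cells and 79.3 FPKM in spheroids, and CDH1, the epithelial cadherin, at 31.1 FPKM in both. The libraries labelled LOVO went against their label. EPCAM stood at 0.930 and 1.50 FPKM in them and CDH1 at 0.117 and 0.00805 FPKM, adherent cells first. CDX2 was listed at 0 in both, against 3.84 and 3.12 FPKM in HCT116. VIL1, CDX1 and GPA33 were listed at 0 as well, but were at most 0.169 FPKM in HCT116 and do not set the lines apart. Of the markers, 3 of 12 reached 1 FPKM in the adherent library and 4 in the spheroid library, against 6 and 7 in HCT116. Keratins were still present in the LOVO libraries, with KRT8 at 189 and 81.6 FPKM, KRT18 at 122 and 98.8 FPKM and KRT19 at 14.9 and 4.85 FPKM. The summed FPKM of 6 fibroblast genes was 54.0 and 72.8 in the LOVO libraries, led by LUM, against 5.60 and 16.1 in HCT116, adherent cells first. LUM alone was 31.4 and 50.4 FPKM in LOVO. Of the 6 genes, 4 and 5 reached 1 FPKM in LOVO, against 1 in each HCT116 library. COL1A1 was higher in HCT116 spheroids than in LOVO spheroids, at 15.5 against 6.10 FPKM. COL1A2 was at most 0.00534 FPKM in any library. The part of these genes in the results was not tested. Values for LOVO are those of the libraries so labelled, and the levels and differences of HCT116 are given without them. The genes compared were chosen by their mean over all 4 libraries, so shares and medians over them in HCT116 depend on the LOVO libraries too.

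ASNS was lower in the spheroids of both lines. It stood at 11.9 FPKM in adherent HCT116 cells and 1.42 FPKM in HCT116 spheroids, from 1080 and 106 reads. In the LOVO libraries it stood at 3.63 FPKM in adherent cells and 0.268 FPKM in spheroids, from 290 and 24 reads. Both spheroid libraries were therefore below both adherent libraries, by 88.1% within HCT116 and by 92.6% within LOVO. The log2(FPKM + 1) difference was -2.42 in HCT116 and -1.87 in LOVO, and the log2 ratio was -3.07 (-3.37 to -2.78) and -3.76 (-4.43 to -3.16). Of the genes compared, 0.194% had a lower difference than ASNS in HCT116 and 1.16% in LOVO. In bulk RNA, fewer cells that use a gene and less of its RNA per cell cannot be told apart. ASNS (ENSG00000070669) lies on chromosome 7 of GRCh38, from 97852118 to 97872542, and 1985 of its 4455 exonic bases are also exonic in AC079781.5, a gene on the same strand. AC079781.5 stood at 0.457 FPKM in adherent HCT116 cells and 1.15 FPKM in HCT116 spheroids, where it was nearly as high as ASNS, and at 0.143 and 0.0347 FPKM in LOVO. How reads on shared bases were assigned is not given in the sources used here. With the reads of both genes summed, the log2(FPKM + 1) difference of ASNS was -1.92 in HCT116 and -1.87 in LOVO, so that in HCT116 it stayed past 1 and not past 2.

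GOT1 (ENSG00000120053, chromosome 10, 99396870 to 99431569) was lower in the spheroids of both lines as well. Its level was 119 FPKM in adherent HCT116 cells and 34.4 FPKM in HCT116 spheroids, 71.1% lower. In LOVO it was 41.6 FPKM in adherent cells and 16.0 FPKM in spheroids, 61.6% lower. The adherent LOVO library was thus close to the HCT116 spheroids in level. The log2(FPKM + 1) difference was -1.76 in HCT116 and -1.33 in LOVO, resting on 8178 and 1949 reads in HCT116 and on 2513 and 1082 reads in LOVO. GOT1 was the most abundant of the 9 transcripts per length in adherent HCT116 cells and the third in HCT116 spheroids. AL391684.1, a gene on the opposite strand, shares 651 of its 3369 exonic bases.

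GPT2 (ENSG00000166123, chromosome 16, 46884378 to 46931297) separated the lines. It stood at 14.0 FPKM in adherent HCT116 cells and at 10.8 FPKM in HCT116 spheroids, and at 33.2 FPKM in adherent LOVO cells and 7.81 FPKM in LOVO spheroids. The log2 ratio was -0.38 (-0.49 to -0.27) in HCT116 and -2.09 (-2.19 to -1.99) in LOVO. Of the 4 levels, that in adherent LOVO cells was the highest and that in LOVO spheroids the lowest.

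**Figure D1:**
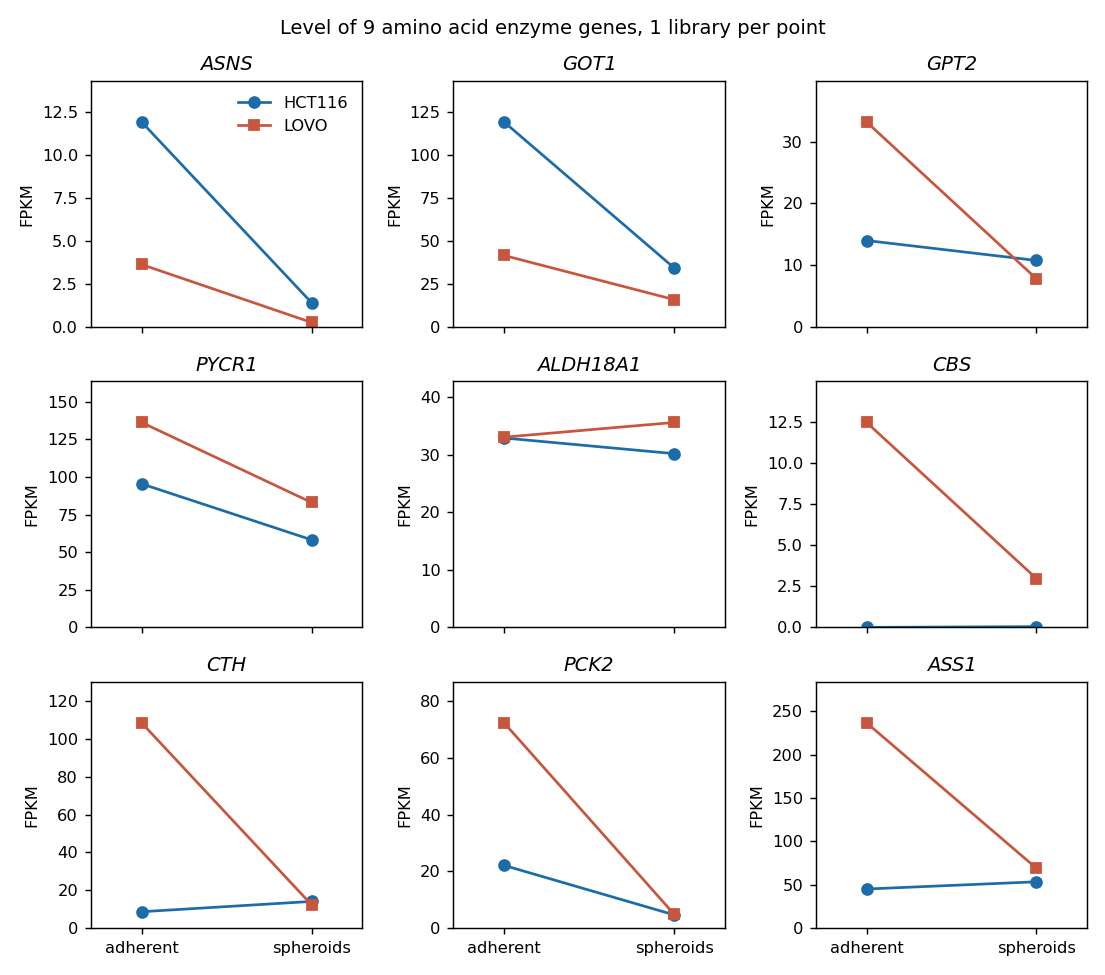
Each panel plots the FPKM (y axis, from 0) of 1 enzyme gene in adherent cells and spheroids, with circles for HCT116 and squares for LOVO and 1 library per point, so no error is drawn. ASNS, GOT1, GPT2, PYCR1 and PCK2 slope down in both lines, whereas CTH is at 109 FPKM in adherent LOVO cells and between 8.58 and 14.0 FPKM in the other libraries.

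The proline enzymes differed less. PYCR1 (ENSG00000183010, chromosome 17, 81932384 to 81942412), the mitochondrial reductase of the last step, stood at 95.5 FPKM in adherent HCT116 cells and 58.3 FPKM in HCT116 spheroids. In LOVO it stood at 136 and 83.1 FPKM, adherent cells first. The differences were nearly equal in size, -0.70 in HCT116 and -0.71 in LOVO, and neither reached 1. ALDH18A1 (ENSG00000059573, chromosome 10, 95605929 to 95656706), which catalyses the entry into the pathway, was between 30.2 and 35.6 FPKM in all 4 libraries. Its log2 ratio was -0.12 (-0.21 to -0.04) in HCT116 and 0.11 (0.03 to 0.19) in LOVO. These intervals lie on opposite sides of 0, but they hold no culture-to-culture spread. Within PYCR1, 408 of the 2886 exonic bases are shared with MYADML2 on the same strand and 450 with an antisense gene that was listed at 0 in all 4 libraries.

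Both transsulfuration enzymes were far lower in LOVO spheroids than in adherent LOVO cells. In HCT116 CTH was not lower, and CBS had too few reads for a lower level to be seen. CTH (ENSG00000116761, chromosome 1, 70411218 to 70439851), cystathionine gamma-lyase, stood at 109 FPKM in adherent LOVO cells and 12.3 FPKM in LOVO spheroids, from 4702 and 596 reads. In HCT116 it stood at 8.58 FPKM in adherent cells and 14.0 FPKM in spheroids, from 422 and 569 reads. The log2(FPKM + 1) difference was thus -3.05 in LOVO and 0.65 in HCT116, and the log2 ratio was -3.15 (-3.27 to -3.02) and 0.71 (0.53 to 0.90). Of the genes compared, 0.208% had a lower difference than CTH in LOVO, and 93.6% had a lower one in HCT116.

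CBS (ENSG00000160200, chromosome 21, 43053191 to 43076943), cystathionine beta-synthase, was at or near the floor of 3 reads in the HCT116 libraries. It had 1 read in adherent HCT116 cells and 6 reads in HCT116 spheroids, and the log2 ratio of 2.86 had an interval from -0.18 to 8.39. In LOVO it stood at 12.5 FPKM in adherent cells and 2.97 FPKM in spheroids, from 1517 and 406 reads. The log2 ratio there was -2.07 (-2.23 to -1.91). CBS has a near-identical annotated copy, CBSL, which shares a stretch of 1646 bases with it, so the division of reads between the 2 genes is uncertain. CBSL had 0 reads in both HCT116 libraries, and in LOVO it had 46 in the adherent library and 78 in the spheroid library, more where CBS had fewer. With the reads of both genes summed, the log2(FPKM + 1) difference in LOVO was -1.61 in place of -1.76.

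PCK2 (ENSG00000100889, chromosome 14, 24094053 to 24110598) was the enzyme gene with the largest difference in LOVO. It stood at 72.4 FPKM in adherent LOVO cells and 4.88 FPKM in LOVO spheroids, from 5436 and 411 reads. In HCT116 it stood at 22.1 FPKM in adherent cells and 4.62 FPKM in spheroids, from 1883 and 325 reads. The adherent libraries were thus 3.28-fold apart and the spheroid libraries 1.06-fold. The log2(FPKM + 1) difference was -2.04 in HCT116 and -3.64 in LOVO, and 7 of the genes compared had a lower value in LOVO. The log2 ratio was -2.26 (-2.43 to -2.09) and -3.89 (-4.04 to -3.75).

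ASS1 (ENSG00000130707, chromosome 9, 130444929 to 130501274) stood at 237 FPKM in adherent LOVO cells, the highest level of any of the 9 genes in any library. It was 68.8 FPKM in LOVO spheroids, 44.9 FPKM in adherent HCT116 cells and 53.3 FPKM in HCT116 spheroids. The log2(FPKM + 1) difference was -1.77 in LOVO and 0.24 in HCT116. ASS1 has 11 annotated processed copies named after it, and the most reads on any of them in a library was 31, against at least 2730 on ASS1.

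**Figure D2:**
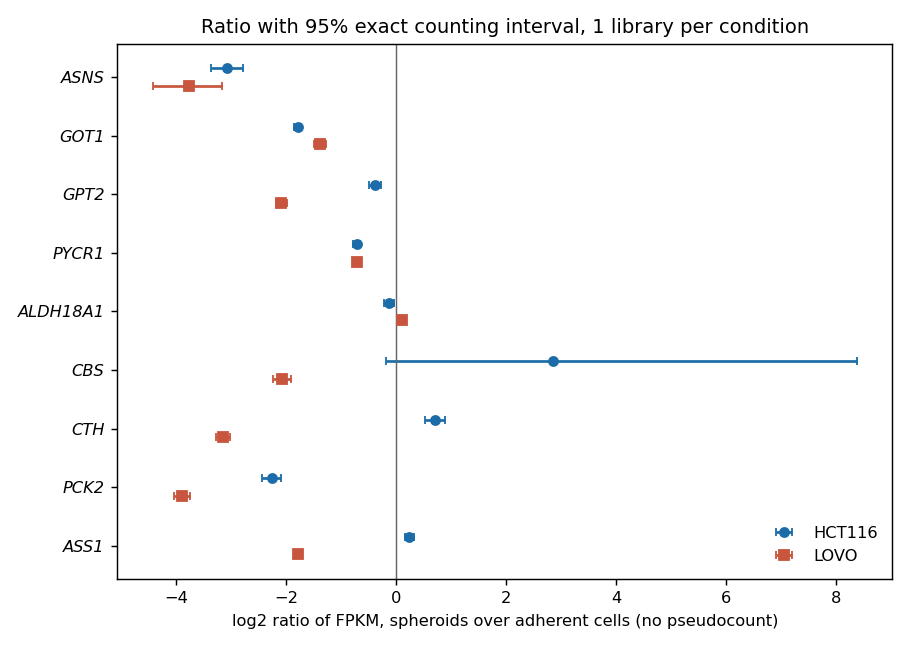
The log2 ratio of FPKM, spheroids over adherent cells without an added value, is on the x axis for each enzyme gene, with circles for HCT116, squares for LOVO and bars for the 95% exact counting interval of 1 library against 1. ASNS, GOT1, GPT2, PYCR1 and PCK2 lie left of 0 in both lines, and the widest bar, from -0.18 to 8.39, is CBS in HCT116 with 1 and 6 reads.

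Counted over the members, 3 of 9 (ASNS, PCK2 and GOT1) were lower by more than 1 in HCT116 spheroids, where 3.33% of all genes compared were. In LOVO spheroids 7 of 9 were lower by more than 1, the exceptions being PYCR1 and ALDH18A1, where 7.85% of all genes were. The same 3 genes as in HCT116 were lower by more than 1 in both lines, beside 0.88% of all genes. Past a difference of 2 there were 2 members in HCT116 (ASNS and PCK2; 0.506% of all genes), 2 in LOVO (PCK2 and CTH; 0.943%) and 1 in both (PCK2; 0.0416%). No member was higher by more than 1, which 2.19% of all genes were in HCT116, 8.57% in LOVO and 0.645% in both. At any size of difference, 5 members were lower in both lines (35.1% of all genes). In opposite directions went 4 members, namely ALDH18A1, CBS (in HCT116 from 1 and 6 reads, too few for a direction), CTH and ASS1. Over all genes that share was 37.7%, which includes genes with a difference of 0 in a line. The median difference of the 9 was -0.35 in HCT116 and -1.77 in LOVO, beside -0.03 and -0.06 over all genes compared. Since the choice of the members used this contrast, nothing is read from these shares.

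**Figure D3:**
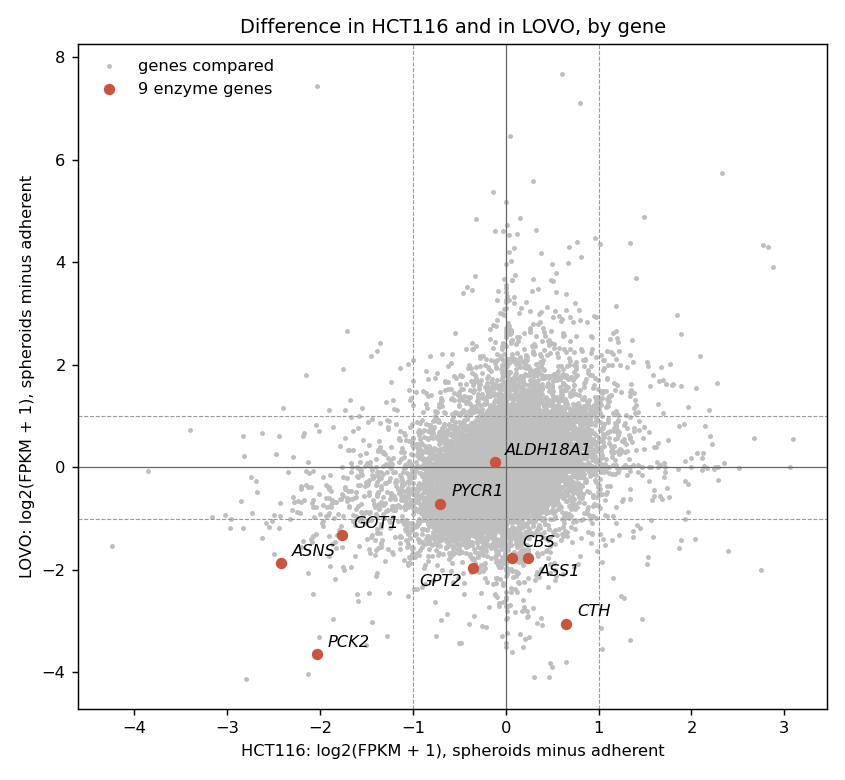
Each point is a gene, with its log2(FPKM + 1) difference, spheroids minus adherent cells, in HCT116 on the x axis and in LOVO on the y axis, the 14429 genes compared in grey and the 9 enzyme genes in red, and broken lines at a difference of 1 either way. ASNS, GOT1 and PCK2 lie past 1 on the lower side in both lines, and GPT2, CBS, ASS1 and CTH do so in LOVO.

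The lines can also be set against each other within each growth form. These ratios come from the same 4 values per gene that chose the members, so they describe the choice as well and nothing is read from the counts. In adherent cells 5 members were higher in LOVO than in HCT116 by more than 1 (GPT2, CBS, CTH, PCK2 and ASS1), where 17.4% of all genes were, and 2 were lower (ASNS and GOT1), where 16.4% of all genes were. In spheroids 1 member was higher in LOVO (CBS) and 1 lower (GOT1), beside 17.7% and 15% of all genes. The FPKM ratio of LOVO to HCT116 was 12.7 for CTH in adherent cells and 0.875 in spheroids. It was 5.27 and 1.29 for ASS1 and 2.37 and 0.725 for GPT2, in the same order. ASNS went the other way, with a level in HCT116 that was 3.28 times that in LOVO in adherent cells and 5.29 times in spheroids. GOT1 was 2.86 and 2.16 times as high in HCT116. PYCR1 had a ratio of LOVO to HCT116 of 1.43 in both, and ALDH18A1 of 1.00 and 1.18. For CBS, the 95% counting interval of the log2 ratio between the lines was 8.27 to 16.1 in adherent cells and 4.69 to 7.27 in spheroids. The summed FPKM of the 9 genes was 349 in adherent and 207 in spheroid HCT116 cells, and 678 in adherent and 232 in spheroid LOVO cells.

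In order of level per length, GOT1 (119 FPKM) and PYCR1 (95.5 FPKM) led in adherent HCT116 cells and PYCR1 (58.3 FPKM) and ASS1 (53.3 FPKM) in HCT116 spheroids. In adherent LOVO cells the order began with ASS1, PYCR1 (136 FPKM), CTH (109 FPKM) and PCK2 (72.4 FPKM). In LOVO spheroids it began with PYCR1 (83.1 FPKM), ASS1 (68.8 FPKM) and ALDH18A1 (35.6 FPKM), with CTH in the fifth and PCK2 in the seventh place. CBS was last in both HCT116 libraries and ASNS in both LOVO libraries. Whether neighbours in these orders differ beyond the spread between cultures cannot be said from 1 library each.

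Several of the enzymes have a partner in another compartment. The mitochondrial aspartate aminotransferase GOT2 stood at 34.2 and 23.7 FPKM in HCT116 and at 74.7 and 43.2 FPKM in LOVO, adherent cells first. GOT1 was therefore 77.7% of the summed FPKM of both in adherent HCT116 cells and 59.2% in the spheroids, and 35.8% and 27.0% in LOVO. The cytosolic alanine aminotransferase GPT was higher in spheroids, at 0.356 and 1.10 FPKM in HCT116 and 0.870 and 4.33 FPKM in LOVO. GPT2 made up 97.5% and 90.7% of the pair in HCT116 and 97.4% and 64.3% in LOVO. PCK1, the cytosolic carboxykinase, had at most 8 reads in any library, so that PCK2 held at least 98.5% of that pair throughout.

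PYCR3, a cytosolic pyrroline-5-carboxylate reductase, stood at 6.19 and 3.76 FPKM in HCT116 and at 7.10 and 9.30 FPKM in LOVO, adherent cells first. It differed by -0.59 in HCT116 and 0.35 in LOVO. ASNSD1, a gene with an asparagine synthetase domain that is no established asparagine synthetase, stood at 22.9 and 16.6 FPKM in HCT116 and 31.3 and 15.1 FPKM in LOVO. Its differences of -0.45 and -1.01 were smaller in size than those of ASNS in the same libraries.

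**Figure D4:**
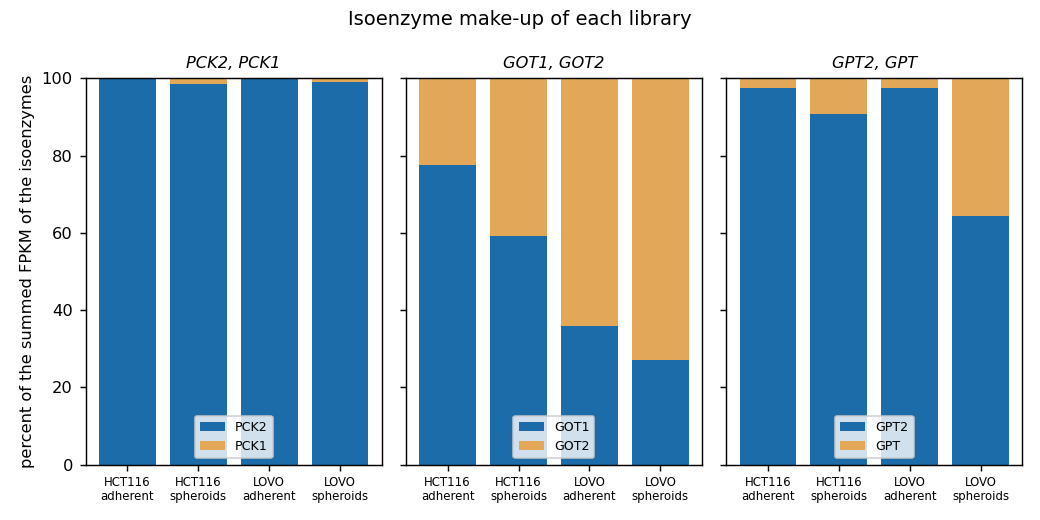
Stacked bars give the percent of the summed FPKM (y axis) that each isoenzyme held in the 4 libraries, with a panel for each of 3 enzyme pairs and 1 library per bar. The share of GOT1 is 77.7% in adherent HCT116 cells and 27.0% in LOVO spheroids, and that of GPT2 is at its lowest, 64.3%, in LOVO spheroids.

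A list of 59 further genes of the same pathways was read beside them, of which 43 were among the genes compared. In HCT116 2 of these were lower by more than 1 (ODC1 and BCAT2) and 0 higher, where 3.33% and 2.19% of all genes were. In LOVO 9 were lower (ODC1, BCAT2, ASNSD1, GLUD1, AHCY, GCLC, GSS, CPS1 and BCAT1) and 3 higher (GPT, SUOX and ME1), where 7.85% and 8.57% of all genes were. On the TPM scale the list had 5 lower and 5 higher in LOVO, beside 972 lower and 2267 higher of the 14429 genes compared. The median difference of the 43 was -0.20 in HCT116 and -0.26 in LOVO, beside -0.03 and -0.06 over all genes compared. For the members it was -0.35 and -1.77, but they were picked on this contrast, so nothing is read from that gap. ODC1, ornithine decarboxylase of polyamine synthesis, was 104 FPKM in adherent HCT116 cells and 36.6 FPKM in the spheroids, and 57.4 and 21.0 FPKM in LOVO. CPS1, the mitochondrial carbamoyl phosphate synthetase that opens the urea cycle, was 610 FPKM in adherent LOVO cells and 73.1 FPKM in LOVO spheroids, against 3.29 and 4.41 FPKM in HCT116. It shared with ASS1 a high level in adherent LOVO cells, whereas ASL, which acts directly after ASS1, stayed between 7.14 and 9.23 FPKM in all 4 libraries. ME1, the cytosolic malic enzyme, was higher in LOVO spheroids, at 48.6 FPKM against 10.4 FPKM in adherent LOVO cells, and was 15.3 FPKM in both HCT116 libraries.

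By sublist, 18 genes of methionine, transsulfuration and cysteine metabolism were compared. Of these, 0 were lower by more than 1 in HCT116, where 3.33% of all genes were. In LOVO 3 were lower (AHCY, GCLC and GSS) and 1 higher (SUOX), beside the same 7.85% and 8.57% of all genes. AHCY, which releases the homocysteine that CBS uses, was 41.5 FPKM in adherent LOVO cells and 16.2 FPKM in LOVO spheroids, and 104 and 68.0 FPKM in HCT116. Of the 9 genes of asparagine, aspartate, glutamate and alanine metabolism, 0 were past 1 in HCT116. Over all genes 3.33% were lower and 2.19% higher there. In LOVO 2 of the 9 were lower (ASNSD1 and GLUD1) and 1 higher (GPT), again beside 7.85% and 8.57% of all genes.

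For each member, the gene with the most similar profile was taken as that with the smallest Euclidean distance over the 4 log2(FPKM + 1) values, each centred on the gene's own mean. For ASNS and for GOT1 this was PPP1R15A, which encodes a regulatory subunit of protein phosphatase 1, at distances of 0.454 and 0.263. Its FPKM was 61.9 and 13.9 in HCT116 and 21.1 and 7.78 in LOVO. For PCK2 it was PSAT1, the aminotransferase of serine synthesis, at 0.278, with 126 and 30.4 FPKM in HCT116 and 404 and 39.7 FPKM in LOVO. For CTH it was RGS2, a regulator of G-protein signalling, at 0.237, and for GPT2 it was ADM2, a peptide hormone, at 0.087. PYCR1 lay nearest to PDCD5 (0.032), ALDH18A1 to DPH2 (0.010), ASS1 to PLCL2 (0.044) and CBS to RNF150 (0.124). With 4 values a gene, small distances to some of 14429 genes are found for many profiles, and those of flat genes are small by construction.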

How the data were processed

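Total RNA of 4 cultures was sequenced by the study with the SMARTER mRNA library kit. The authors deposited a table of FPKM values with gene lengths for 58735 genes; the aligner, the counting tool and its strand setting are not given in the sources used here, and the labels name a mouse build although every gene identifier and 100% of the gene starts and ends are those of GENCODE 29 on GRCh38. FPKM times gene length was a whole multiple of 1 step per library for 100% of values above 0 (tolerance 0.001), which gave the reads. The library sizes behind the FPKM were 0.907 to 1.09 times the reads on genes.

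The 9 members and all lists were chosen with earlier results of these data known. Genes with a mean of at least 1 FPKM were compared on the log2(FPKM + 1) scale within each line. A difference past 1 was counted, and one past 2 separately. With 1 library per condition no p-value was computed. The members, their isoenzymes and copies, the 2 pathway genes with the largest rise and the 2 with the largest fall by the mean of both lines, and the gene nearest to each member in profile were named by rule. BCAT2 and AHCY with other pathway genes were named because a count rests on them, and ASL was added after its values were seen. Alternatives were other pseudocounts, filters, TPM, TMM-style scaling, centring on the median and protein-coding genes alone. The TMM-style factors, 0.905 to 1.10, were close to the library size ratios above, so that alternative is close to the FPKM as given. Python 3.11.15 with numpy 2.4.6, pandas 2.3.3, scipy 1.17.1 and matplotlib 3.10.9 was used, and the steps were tested on simulated data. Promoter sequences are from RefSeq (GRCh38.p14). 1 isoenzyme of the rule is not reported here.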

Additional observations from a re-analysis of the deposited data

Results flagged for a closer look

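Genes were singled out where spheroids and adherent cells differed in opposite directions in the 2 lines. With 1 library per condition the difference between the lines was not tested for any of them. Of all genes compared, 37.7% went in opposite directions too or had a difference of 0 in a line. The values are the log2(FPKM + 1) difference in LOVO minus that in HCT116. Among the members this was -3.70 for CTH, -2.01 for ASS1, -1.82 for CBS and 0.22 for ALDH18A1. For CBS the HCT116 side rests on 1 and 6 reads. Among the isoenzymes and pathway genes named, it was -3.38 for CPS1, 1.08 for SUOX, 0.94 for PYCR3 and 0.31 for ASL. Among the genes nearest in profile to a member it was -3.31 for RGS2, -2.05 for PLCL2 and 0.22 for DPH2, and these were chosen for resembling CTH, ASS1 and ALDH18A1.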

How the results depend on the processing

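No library could be left out, since each condition has 1. Each difference is already paired within its cell line. A fit of growth form with cell line as a block would leave 1 residual degree of freedom and was not run, since the members were chosen on this contrast. No member's difference changed sign under any of the alternatives run. The difference of ASNS lay between -3.06 and -2.38 for HCT116 and between -3.71 and -1.81 for LOVO with each gene on its own, with the most negative values at a pseudocount of 0.01, and that of CBS in HCT116 lay between 0.06 and 1.86. The median of the members in LOVO was -2.03 with a pseudocount of 0.1, -2.06 with 0.01 and -1.71 after centring on the median. With 0.01, 1 member (CBS) was higher by more than 1 in HCT116, where 937 of the 14429 genes compared were. At a difference of 2, members lower in LOVO numbered 2 and in both lines 1. In the pathway list, genes higher in HCT116 numbered 1 with a pseudocount of 0.1, 0.01 or TPM, and genes lower there 4 with 0.01. Of all 14429 genes, 764, 937 and 613 were higher at those settings, and 849 were lower with 0.01. Genes of the list higher in LOVO numbered 5 with 0.01 and 5 with TPM, while those lower in LOVO numbered 5 with TPM. Of all genes, 2266 with 0.01 and 2267 with TPM were higher in LOVO, and 972 were lower there with TPM. Genes of the list lower in both lines numbered 2 as reported, beside 0.88% of all genes, and 1 with TPM. The share of all genes lower in both lines with TPM was not computed, so nothing is read from that count. At a difference of 2 the list had 0 lower in HCT116, 2 lower and 1 higher in LOVO, and 0 lower in both. Of all genes, 0.506% were lower past 2 in HCT116, 0.943% in LOVO and 0.0416% in both, and 261 genes were higher in LOVO. TPM moved the median of all genes in LOVO from -0.06 to 0.10 and the share of higher genes among those past 1 from 52.2% to 70.0%. In HCT116 that share was 39.7% as reported, 50.1% and 52.5% with pseudocounts of 0.1 and 0.01, 27.3% with a minimum mean of 5 FPKM and 49.5% with TPM. A minimum of 5 FPKM leaves out ASNS and CBS. Summing CBS with CBSL, and ASNS with AC079781.5 (-1.92 for ASNS in HCT116), was chosen after seeing the data. Depth limits CBS in HCT116, and ASNS in LOVO spheroids with 24 reads.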
